A study of Homo sapiens with 4 samples.

Results

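Of 1146 single MCF10A cells, 194 held at least 1 unique molecular identifier (UMI) of ZEB1, and these cells are described here. They were selected on a measured value, the ZEB1 count of the cell, so the level of ZEB1 itself is given as a description with no test. The cells came from 4 circular patches of MCF10A, an untransformed human mammary epithelial line, here with an H2B-GFP marker, grown for 6 days on fibronectin-coated glass in medium with serum, EGF, hydrocortisone, cholera toxin and insulin. In 2 patches, bands of 1000 to 1500 μm were tagged with photoactivatable dyes (low resolution), and in the other 2 patches bands of 250 μm at the rim (high resolution). Each experiment had 2 replicates, each a plate of 384 wells with live sorted cells. A plate is taken here to hold the cells of 1 patch, which the labels do not state. Plates therefore serve as replicates, 2 in each experiment. All plates share the line, the medium and the age of the culture, and no patch was left untagged. A plate holds cells of the outer, middle and inner regions together. Regions were not separated here, so a value covers the sorted cells of a plate and not the patch as a whole. The labels do not give the share of each region, which may differ between plates and experiments. SORT-seq, a plate-based method that counts transcripts by UMIs, was used for sequencing. Wells were kept when 2000 to 9000 features were detected and mitochondrial genes took under 40% of the counts, which left between 271 and 293 cells per plate. Values per plate are given below in the order low-resolution replicates 1 and 2, then high-resolution replicates 1 and 2.

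ZEB1 is a zinc finger transcription factor that binds E-box sequences and is best known as a repressor of epithelial genes, E-cadherin among them. Together with ZEB2 and the SNAI and TWIST factors it drives the epithelial-to-mesenchymal transition (EMT), in which epithelial cells loosen their junctions, lose polarity and become motile. ZEB1 and the microRNAs of the miR-200 family repress each other. In mammary epithelium, ZEB1 is low in luminal cells and is induced by TGF-beta. The gene lies on the plus strand of chromosome 10 at 31318495 to 31529814 of GRCh38 (GENCODE release 29), the build of the submitters' processing notes.

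ZEB1 was a rare transcript. A ZEB1 UMI was found in 45 of 291 cells of low-resolution replicate 1, or 15.5% (exact binomial 95% interval 11.5% to 20.1%). In low-resolution replicate 2 it was found in 30 of 271 cells, or 11.1% (7.59% to 15.4%). The high-resolution plates had 63 such cells of 291, or 21.6% (17.1% to 26.8%), and 56 of 293, or 19.1% (14.8% to 24.1%). Both high-resolution plates were thus above both low-resolution plates, by 7.11 percentage points on average, and with 2 plates against 2 an exact permutation test cannot go below the p of 0.333 found here. The high-resolution plates also had more transcripts per cell, with medians of 35409 and 40893 against 30118 and 33283. When cells with at least 10000 UMIs were thinned to that number, the shares were 5.92%, 5.97%, 7.75% and 5.15%, and the experiments overlapped. The 16 cells with fewer UMIs were left out of these shares. Intervals and shares cover counting error only.

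Most of the 194 cells rested on a single molecule. Of them, 128 (66.0%) held 1 ZEB1 UMI, 42 held 2 and 24 held 3 or more, and the highest count was 7, in low-resolution replicate 2. The 4 plates together held 293 ZEB1 UMIs in cells that passed the limits. A cell without a ZEB1 UMI is therefore not shown to lack the transcript, and it is called ZEB1-zero. The cells with a ZEB1 UMI were deeper than the rest of their plate. Their median depth was 35281 transcripts against 29289 in ZEB1-zero cells of low-resolution replicate 1, 40036 against 32926 in replicate 2, 38858 against 34149 in high-resolution replicate 1 and 45414 against 39310 in replicate 2. Within a plate, the lowest quintile by depth had a ZEB1 UMI in 6.78% to 10.2% of cells and the highest quintile in 18.6% to 24.1%. The share did not rise steadily: in high-resolution replicate 1 19 of 58 cells held one in quintile 3, 18 of 58 in quintile 4 and 11 of 58 in quintile 5, and in replicate 2 the share was 27.6% in quintile 4 and 18.6% in quintile 5. For this reason each cell with a ZEB1 UMI was compared with ZEB1-zero cells of the same depth quintile of its own plate. After this matching the mean depth of cells with a ZEB1 UMI, between 40136 and 48786 transcripts, differed from that of ZEB1-zero cells by -1063 to 594, and the mean number of features, between 5705 and 6111, by -6.34 to 52.7. Of 222 wells with fewer than 2000 features, 4 held a ZEB1 UMI (1.80%, 0.493% to 4.55%), at a median depth of 2181 transcripts. Cells at that depth would rarely hold one either, so these wells do not show how high the background is. Of the 167 wells set aside for mitochondrial counts, 8 held one.

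Cells with a ZEB1 UMI sat toward the mesenchymal end of the EMT score. The score is the GSVA enrichment of 115 listed mesenchymal (M) genes minus that of 65 epithelial (E) genes, computed without ZEB1, and both lists come from earlier work than these plates. The mean score of cells with a ZEB1 UMI was 0.612, 0.537, 0.518 and 0.545 in the 4 plates. Matched ZEB1-zero cells had means of -0.0318, -0.0540, -0.0424 and -0.0420. The difference was 0.596 ± 0.0349 (SD, n = 4 plates) and had the same sign in 4 of 4 plates, for which an exact two-sided sign-flip permutation test gives the smallest p it allows, 2 of 16 sign patterns, and cannot reach 0.05. Both components of the score differed: the E score by -0.412 to -0.346 and the M score by 0.213 to 0.242. The median score was higher in cells with 1 UMI than in ZEB1-zero cells of the same plate, and higher again in cells with 2 or more. In low-resolution replicate 2 these medians were -0.264, 0.717 and 0.851, and in high-resolution replicate 1 they were -0.0709, 0.591 and 0.621, which was the smallest step from 1 UMI to more.

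**Figure D1:**
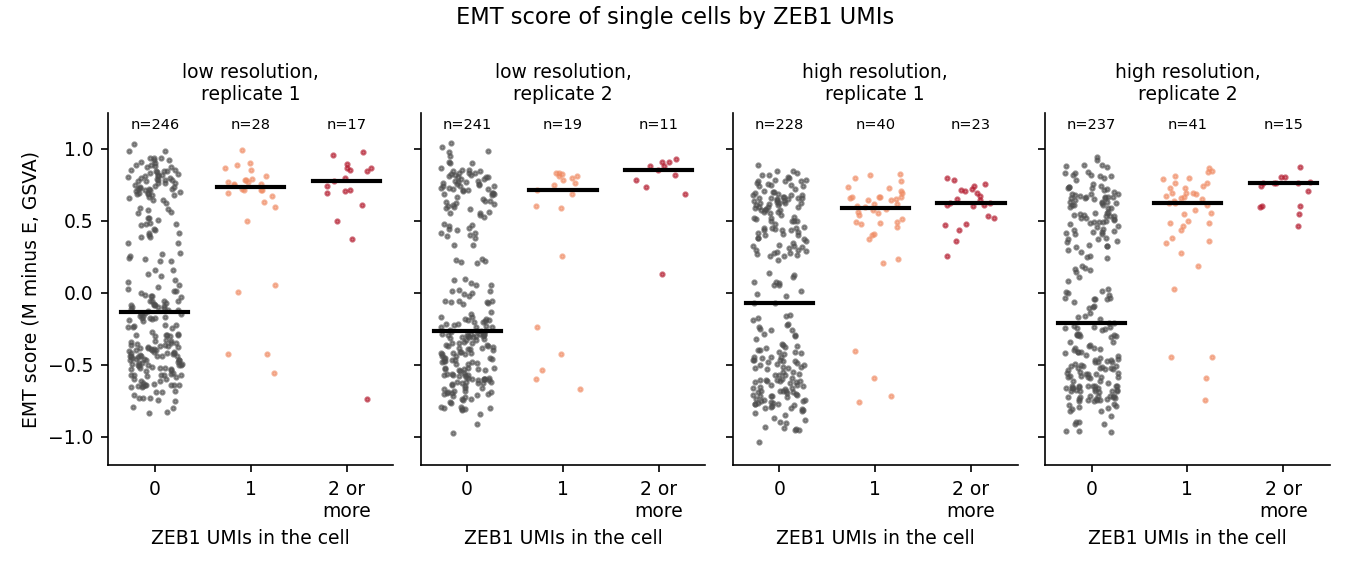
EMT score (M minus E, GSVA) of each cell, grouped by the number of ZEB1 UMIs in the cell, for the 4 plates. Points are cells, black bars are medians and n is the number of cells. In every plate the medians rise from 0 to 1 to 2 or more UMIs, and ZEB1-zero cells cover the whole range.

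ZEB1 detection followed the score when each plate was divided into terciles. In the highest tercile, a ZEB1 UMI was found in 36.1%, 25.3%, 41.2% and 40.8% of cells, and in the lowest tercile in 4.12%, 4.44%, 4.12% and 4.08%. The middle tercile was closer to the lowest at low resolution (6.19% and 3.33%) than at high resolution (19.6% and 12.4%). Over the 4 plates, 71.1% of the 194 cells fell into the highest tercile, 40 into the middle tercile and 16 into the lowest. The median depth was 35940 transcripts in the lowest tercile and 35292 in the highest. Of the 383 cells of the highest tercile, 245 had no ZEB1 UMI.

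**Figure D2:**
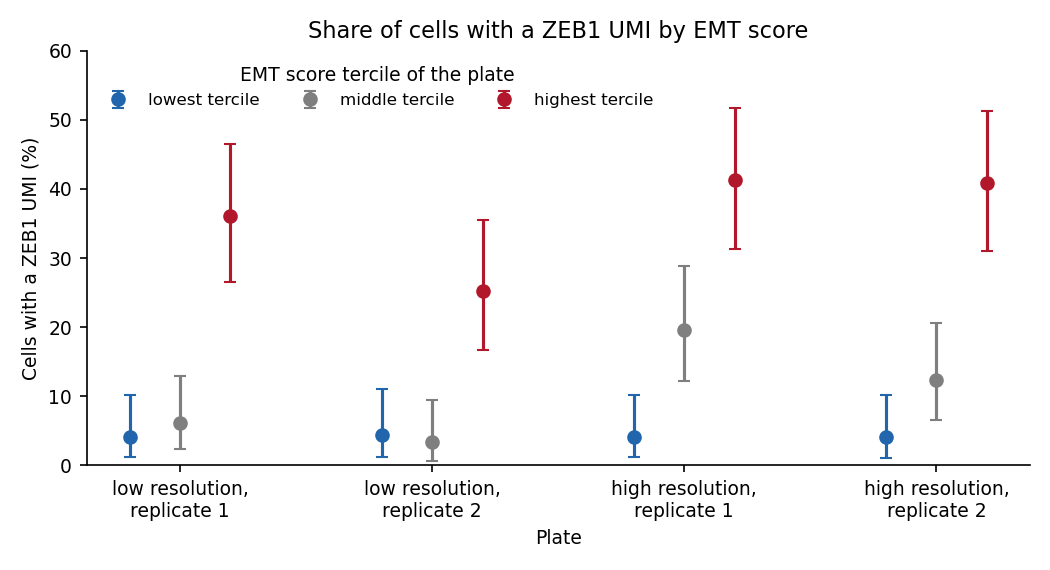
Share of cells with a ZEB1 UMI (%) in the lowest, middle and highest tercile of the EMT score of each plate. Points are shares and bars are exact binomial 95% intervals, which cover counting error only. The highest tercile lies between 25.3% and 41.2% and the lowest between 4.08% and 4.44%.

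The 16 cells in the lowest tercile were close to its ZEB1-zero cells in the epithelial and mesenchymal markers looked at. E-cadherin (CDH1), the adherens junction cadherin of epithelia, had a UMI in 15 of them, and EPCAM, an epithelial adhesion molecule, in all 16. Vimentin (VIM), the intermediate filament of mesenchymal cells, had a UMI in 4. Fibronectin (FN1), a mesenchymal marker in the study, had one in 11. ZEB1-zero cells of the same tercile had shares of 92.6% for CDH1, 97.5% for EPCAM, 21.0% for VIM and 65.0% for FN1. Of the 16 cells, 15 held a single ZEB1 UMI. Among the cells with a ZEB1 UMI in the highest tercile, CDH1 was found in 11.6%, EPCAM in 23.2%, VIM in 84.8% and FN1 in 100%. CDH1, EPCAM, VIM and FN1 are in the lists behind the score, and these shares are given as a description.

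Gene expression was then compared on counts summed per plate and ZEB1 status, with edgeR's quasi-likelihood test and the plate as a block. Among 8731 genes with a count in at least 20% of cells, 927 (10.6%) were higher and 830 (9.51%) lower in cells with a ZEB1 UMI at a Benjamini-Hochberg adjusted p under 0.05. Of these 1757 genes, 1661 differed in the same direction in all 4 plates. DESeq2 called 550 genes on the same sums, of which 535 were among the 1757. The median log2 fold change of all genes tested was 0.01, and that of the genes past the threshold was 0.49 in size. In 488 genes (5.59%) the 4 sums of cells with a ZEB1 UMI all lay above the 4 sums of ZEB1-zero cells, and in 471 (5.39%) all lay below. Levels below are transcripts per 10000 of the summed cells. Fold changes are log2 values ± a standard error back-calculated from the test. It is the size of the log2 fold change divided by the square root of the quasi-likelihood F statistic.

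**Figure D3:**
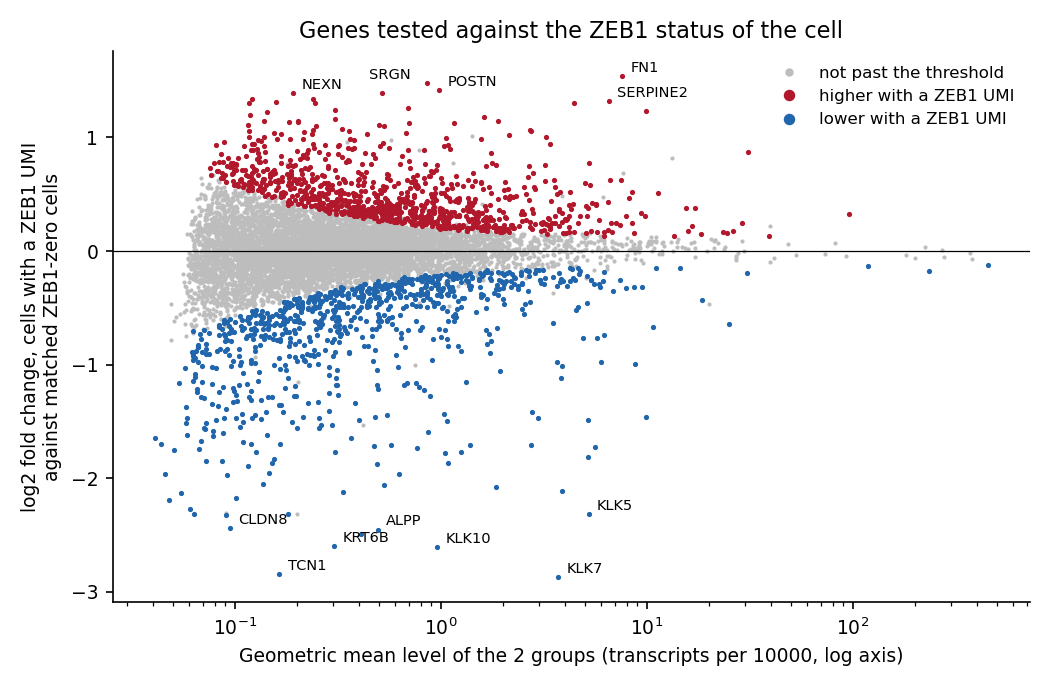
Log2 fold change between cells with a ZEB1 UMI and matched ZEB1-zero cells against the geometric mean level of both groups (transcripts per 10000, log axis), for 8731 genes. Red and blue points passed an adjusted p of 0.05. The falls reach further from 0 (-2.87, KLK7) than the rises (1.54, FN1).

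The 10 largest rises included several secreted and matrix proteins. Fibronectin (FN1), a matrix glycoprotein that integrins bind, was at 12.0, 10.7, 14.2 and 14.2 in cells with a ZEB1 UMI and at 3.35, 2.89, 5.98 and 5.76 in ZEB1-zero cells. All 4 values of the first group were above all 4 of the second, with a 2.91-fold difference (1.54 ± 0.16 on the log2 scale, edgeR adjusted p = 0.00887). Serglycin (SRGN), the core protein of an intracellular proteoglycan, was at 0.882, 0.951, 2.38 and 1.48 against 0.313, 0.468, 0.698 and 0.591 (1.48 ± 0.09, adjusted p = 2.42e-11). Periostin (POSTN), a matricellular protein, was at 0.421, 1.02, 2.64 and 2.34 against 0.340, 0.307, 1.03 and 0.716 (1.41 ± 0.21, adjusted p = 0.0178). The groups did not overlap for SRGN, while for POSTN they did, with the smallest difference in low-resolution replicate 1. POSTN did not pass without high-resolution replicate 1 (adjusted p = 0.0788), and SERPINE2, given next, did not without low-resolution replicate 1 (adjusted p = 0.0530). The other 7 rises, between 1.31 and 1.39, were NEXN, an actin-binding protein of contractile cells, FBN1 (fibrillin-1), PAPPA, a protease of IGF-binding proteins, LRP1, an endocytic receptor, SERPINE2, a serine protease inhibitor, VCAN (versican) and GNG11, a G protein subunit. Of these 7 genes, only VCAN had overlapping groups.

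Kallikrein-related peptidases made up 4 of the 10 largest falls. Kallikrein-related peptidase 7 (KLK7), a secreted serine protease of stratified epithelia, was at 2.15, 2.05, 0.830 and 0.513 in cells with a ZEB1 UMI. In ZEB1-zero cells KLK7 was at 17.2, 12.3, 5.76 and 4.55, which is 7.32 times the level of the first group (-2.87 ± 0.08, edgeR adjusted p = 1.18e-12). KLK10 (-2.60), KLK8 (-2.49) and KLK5 (-2.32), which lie with KLK7 in a cluster on chromosome 19, were also among the 10, and KLK5 fell from 17.0, 14.9, 7.63 and 6.25 to 3.15, 3.82, 1.63 and 0.954. With KLK6, all 5 kallikrein-related peptidases tested were lower, a family looked at after its members had been seen among the falls. The vitamin B12 binding protein gene TCN1 was at 0.116, 0.0773, 0.0307 and 0.0220 against 0.588, 0.658, 0.283 and 0.223 (-2.84 ± 0.18, adjusted p = 5.81e-14). The remaining 5 were KRT6B, a keratin of activated stratified epithelia (-2.60), ALPP, an alkaline phosphatase (-2.45), CLDN8, a tight junction claudin (-2.44), MYH14, a non-muscle myosin (-2.32) and CALB1, a calcium-binding protein (-2.32). KRT6B and ALPP have near-identical paralogs, so their reads may be split with those genes. In all 10 genes the 4 sums of cells with a ZEB1 UMI were below all 4 sums of ZEB1-zero cells.

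**Figure D4:**
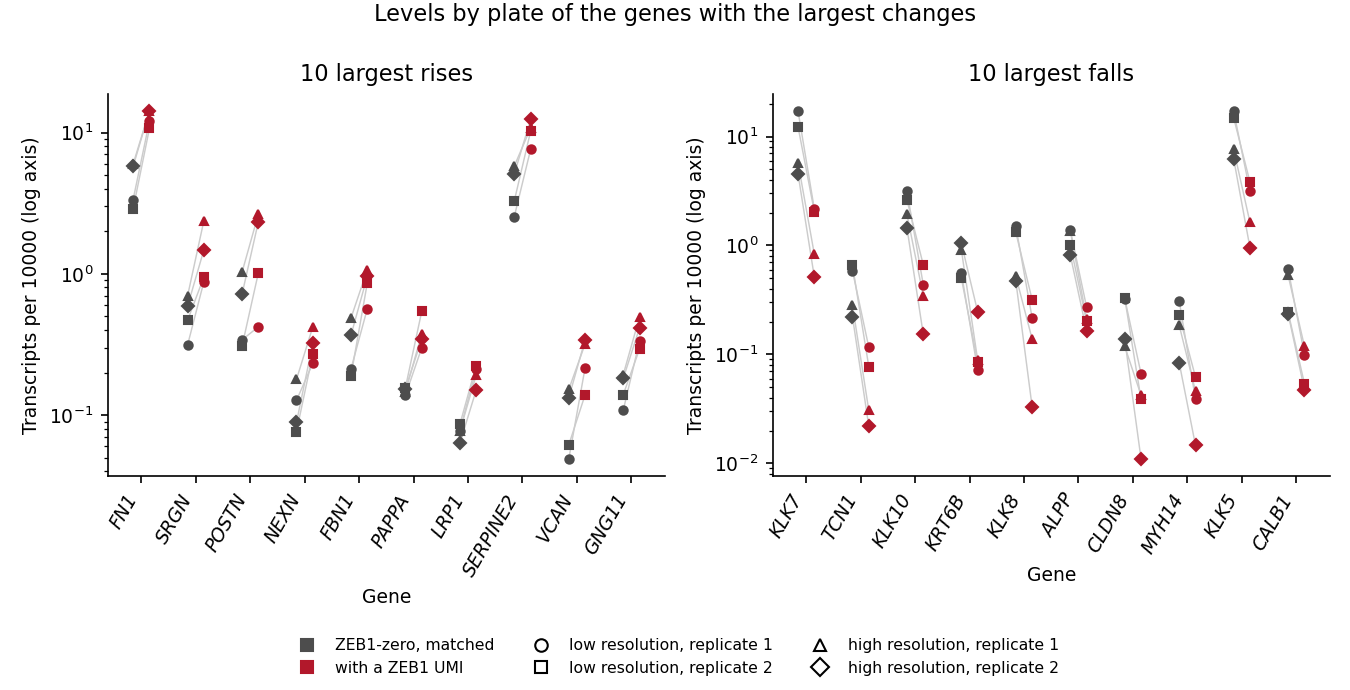
Levels (transcripts per 10000, log axes) of the 10 genes with the largest rises and the 10 with the largest falls, in matched ZEB1-zero cells (grey) and cells with a ZEB1 UMI (red). Each symbol is a plate and lines join the sums of one plate. Every line rises in the left panel and falls in the right panel, and the kallikrein levels of both groups are lower in the high-resolution plates.

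Epithelial genes that are known or reported direct targets of ZEB1 were lower nearly throughout. Of 23 listed genes, 20 passed the filter, and 19 were lower and none higher, with a median of -1.43 against 0.01 for all genes tested. Of all genes tested, 9.51% were lower. Many of the targets, CLDN7, RAB25 and CDH1 among them, are also E genes of the score. The target list and the E list are therefore not separate results. MAL2, a protein of apical transport, was at 1.76, 1.89, 1.61 and 1.50 in cells with a ZEB1 UMI and at 5.18, 4.55, 4.17 and 4.15 in ZEB1-zero cells (-1.42 ± 0.06, edgeR adjusted p = 2.70e-18). The groups were far apart in every plate. RAB25, a small GTPase of apical recycling (-1.70 ± 0.11), CLDN7, a tight junction claudin (-1.49 ± 0.08), and SPINT2, an inhibitor of membrane serine proteases (-0.67 ± 0.05), were the others of smallest p. CDH1, named here for its known role after its values were seen, was at 0.238, 0.247, 0.111 and 0.0732 against 0.888, 0.760, 0.550 and 0.506 (-2.12 ± 0.14, adjusted p = 3.27e-12). In shares of cells, CDH1 had a UMI in 24.2% of the 194 cells (18.4% to 30.9%) and in 63.3% of the 952 ZEB1-zero cells. CRB3, a polarity gene and a known ZEB1 target, was below the filter, with a UMI in 12 of the 194 cells and in 191 of the 952. When the filter was set at 5% of cells, CRB3 was lower as well (-1.93 ± 0.34, adjusted p = 6.44e-05).

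The E-box that ZEB1 binds with its zinc fingers reads CACCTG, or CAGGTG on the other strand, and the 2 forms cannot overlap each other. RefSeq promoters, taken as the 250 bases before the start of transcription (GRCh38.p14), were found for 10 of the 23 target genes, and 11 of these genes' 14 promoters (78.6%) held the motif. It was held by 6143 of all 35116 promoters (17.5%), by 25.3% of 937 promoters of the genes that were lower, by 12.3% of 1256 promoters of those that were higher and by 14.4% of 7839 promoters of genes tested but not called. Of the promoters of the E genes 42.9% held it, and of those of the M genes 7.53%. The target list was drawn up from genes reported to be bound by ZEB1, so its own share is no separate finding. A match is a stretch of letters and not a bound site. Promoters of CRB3 with 5 matches, CLDN7 with 4 and RAB25 with 1 show how these motifs lie before the start. The motif is in capitals and the start of transcription comes after the last base. The other CLDN7 promoter, at chr17:7263214-7263463 on the minus strand, held no match and is not shown. CRB3 is at chr19:6464021-6464270 on the plus strand, CLDN7 at chr17:7262479-7262728 on the minus strand and RAB25 at chr1:156060910-156061159 on the plus strand.
CRB3: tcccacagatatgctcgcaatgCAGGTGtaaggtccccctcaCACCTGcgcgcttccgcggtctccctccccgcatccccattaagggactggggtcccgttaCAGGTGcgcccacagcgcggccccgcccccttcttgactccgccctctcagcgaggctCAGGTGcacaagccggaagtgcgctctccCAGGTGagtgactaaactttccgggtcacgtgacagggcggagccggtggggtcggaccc
CLDN7: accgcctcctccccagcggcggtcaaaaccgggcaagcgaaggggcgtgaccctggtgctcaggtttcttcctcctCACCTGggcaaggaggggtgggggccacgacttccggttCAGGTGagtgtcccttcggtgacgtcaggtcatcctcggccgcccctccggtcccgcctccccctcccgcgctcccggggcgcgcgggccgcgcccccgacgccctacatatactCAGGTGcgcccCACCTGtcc
RAB25: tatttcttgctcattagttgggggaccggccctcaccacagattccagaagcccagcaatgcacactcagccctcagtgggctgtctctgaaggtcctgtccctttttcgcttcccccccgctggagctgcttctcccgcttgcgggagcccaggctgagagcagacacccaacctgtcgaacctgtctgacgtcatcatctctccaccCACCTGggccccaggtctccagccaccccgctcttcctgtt

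Most of the other EMT transcription factors that passed the filter were higher with ZEB1, against 10.6% of all genes tested. Of 5 tested, 4 were higher and none lower, with a median of 0.75, and TCF3 did not pass (0.01 ± 0.13, edgeR adjusted p = 0.964). SNAI2 (SLUG), a repressor of epithelial genes, was at 1.38, 1.79, 3.19 and 3.14 in cells with a ZEB1 UMI and at 0.728, 0.732, 1.71 and 2.05 in ZEB1-zero cells (0.86 ± 0.08, edgeR adjusted p = 2.25e-07). Each plate had the higher value in the first group, but the groups overlapped because SNAI2 was higher in both high-resolution plates. TWIST2 (0.75 ± 0.12), TWIST1 (0.58 ± 0.11) and ZEB2 (0.82 ± 0.22), the paralog of ZEB1, also passed the test. SNAI2, TWIST1 and ZEB2 are also M genes of the EMT score. ZEB2 had a UMI in 42.2%, 30.0%, 25.4% and 37.5% of the cells with a ZEB1 UMI and in 21.3%, 15.5%, 20.4% and 21.8% of matched ZEB1-zero cells, and in all it was found in 65 of the 194 cells. Among factors under the filter, FOXC2 was higher in the fit with the lower filter (1.71 ± 0.34, adjusted p = 0.000357), and SNAI1 was not past the threshold (-0.96 ± 0.42, adjusted p = 0.154), with a UMI in 10 of the 194 cells. TCF4 (0.63 ± 0.28, adjusted p = 0.159) and KLF8 (-0.29 ± 0.29, adjusted p = 0.635) did not pass in that fit either. TCF3, FOXC2, SNAI1, TCF4 and KLF8 were named after their values were seen.

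Genes for partners and cofactors of ZEB1 showed smaller differences in both directions. Of 16 tested, 3 were higher and 2 lower, with a median of 0.04. Over all genes tested, 10.6% were higher and 9.51% lower. SMAD3, which carries TGF-beta signals to the nucleus (0.56 ± 0.10), and TEAD1, a partner of YAP1 (0.35 ± 0.08), were higher, while the corepressor CTBP2 (-0.45 ± 0.07) and the histone deacetylase HDAC1 (-0.42 ± 0.13) were lower. In the TGF-beta pathway, 8 of 23 genes were higher and 1 lower, with a median of 0.29. LTBP2 (1.03 ± 0.10) and LTBP1 (0.90 ± 0.11) encode latent TGF-beta binding proteins of the matrix, PMEPA1 (0.37 ± 0.05) is a target and inhibitor of the pathway, and SMAD1 (-0.94 ± 0.16), which mainly carries BMP signals, was the 1 lower gene.

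Most of the M and matrix genes tested were higher, where 10.6% of all genes tested were higher and 9.51% lower. Of 36 M genes tested, 30 were higher and 1 was lower, with a median of 0.62, and FBLN1 (fibulin-1, 0.75 ± 0.06), SRGN, TPM2 (0.69 ± 0.06) and FBN1 had the smallest p. The lower gene was SFRP1, a secreted Wnt antagonist (-0.41 ± 0.07). VIM did not pass the test: it was at 1.32, 1.88, 1.54 and 3.48 against 0.892, 0.645, 1.19 and 1.18 (1.01 ± 0.30, adjusted p = 0.131), higher in 4 of 4 plates but by unequal amounts. SFRP1 and VIM were named after their values were seen. Of 19 matrix genes tested, 14 were higher and 2 lower, with a median of 0.64. Those of smallest p were CYR61, a matricellular protein and YAP1 target (0.93 ± 0.08), THBS1 (thrombospondin-1, 0.76 ± 0.07) and the laminin chains LAMC1 (0.61 ± 0.07) and LAMB1 (0.70 ± 0.08).

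Among 18 integrins and other surface receptors, 9 were higher and 3 lower, with a median of 0.22. The shares over all genes tested were 10.6% higher and 9.51% lower. ITGA5, the alpha chain of the fibronectin receptor, was at 1.46, 1.91, 2.82 and 2.69 in cells with a ZEB1 UMI and at 0.657, 0.809, 1.43 and 1.55 in ZEB1-zero cells (0.99 ± 0.07, edgeR adjusted p = 2.52e-12). The groups overlapped across experiments while each plate moved the same way. Its partner chain ITGB1 (0.63 ± 0.05), the hyaluronan receptor CD44 (0.62 ± 0.06) and neuropilin-1 (NRP1, 0.95 ± 0.09), a coreceptor of VEGF and semaphorins, followed. Of 17 genes of the contractile cytoskeleton, 12 were higher and none lower, with a median of 0.40. TPM2 (tropomyosin), the actin crosslinker FLNA (0.77 ± 0.07), CALD1 (caldesmon, 0.55 ± 0.06) and ACTN1 (alpha-actinin, 0.44 ± 0.05) had the smallest p.

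Most junction and keratin genes tested were lower, where 9.51% of all genes tested were lower and 10.6% higher. Of 46 E genes tested, 36 were lower and none higher, with a median of -1.16. S100A14, a calcium-binding protein of epithelia, was at 0.732, 1.22, 0.804 and 0.855 against 3.88, 4.54, 3.30 and 3.46 (-2.08 ± 0.07, edgeR adjusted p = 1.13e-18). The surface glycoprotein CD24 was at 6.66, 5.86, 6.92 and 4.35 against 19.5, 17.4, 16.4 and 12.4 (-1.46 ± 0.05, adjusted p = 9.98e-18). Both genes were apart in every plate, as was AP1M2, an adaptor subunit of polarized sorting (-1.88 ± 0.11). Of 10 desmosome genes, 6 were lower and none higher (median -0.79), with DSP (desmoplakin, -0.98 ± 0.05), PERP (-0.76 ± 0.05), DSG3 (desmoglein-3, -1.19 ± 0.09) and DSC2 (desmocollin-2, -1.71 ± 0.12) as those of smallest p. Of 11 keratins, 7 were lower and none higher, with a median of -0.47. The luminal pair KRT8 (-1.01 ± 0.06) and KRT18 (-0.58 ± 0.07) and the basal KRT5 (-0.43 ± 0.05) were among them.

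Basal markers of the line were present in these cells. KRT5 had a UMI in all 194 cells, KRT17 in 184, ITGA6 in 189 and KRT14 in 133, while the basal regulator TP63 had one in 7. Of 5 basal markers tested, ITGB4 was higher (0.30 ± 0.07) and KRT5 lower, and KRT14 (-0.36 ± 0.11, adjusted p = 0.0626) and KRT17 (-0.23 ± 0.10, adjusted p = 0.191) did not pass. The summed level of the basal markers was 24.4 to 29.5 in cells with a ZEB1 UMI and 28.6 to 38.0 in ZEB1-zero cells. Of 5 luminal markers, KRT8, KRT18 and FOXA1 (-1.29 ± 0.24) were lower and GATA3 was not past the threshold (-0.32 ± 0.13, adjusted p = 0.0910). The luminal markers summed to 5.49 to 8.35 against 9.40 to 10.9, and the hormone receptor genes ESR1 and PGR had a UMI in 3 and 1 of the 194 cells.

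Markers of other cell types were checked because fibroblasts express ZEB1. Of 9 fibroblast markers found, 6 had a UMI in under 5% of the 194 cells. COL3A1 was found in 1 cell, PDGFRA in 2 and PDGFRB in 0. The count of 0 allows a share of cells with a UMI of up to 1.88% (exact binomial 95% interval). It does not show that the others lack the transcript. POSTN and FAP (0.96 ± 0.20) were higher, and COL1A1 was not past the threshold (0.06 ± 0.23, adjusted p = 0.910). POSTN had a UMI in 57.2% of the 194 cells, FAP in 34.5% and COL1A1 in 22.2%. In all 952 ZEB1-zero cells, not matched on depth, the shares were 23.1%, 17.8% and 21.2%. Summed over the list, the level was 0.604 to 2.93 in cells with a ZEB1 UMI and 0.400 to 1.20 in ZEB1-zero cells. Of 9 immune and endothelial markers, 6 were in under 5% of the cells, PTPRC in 2 and CDH5 in 0. The other markers were common in both groups. PECAM1 was in 45.4% of the 194 cells, CD14 in 38.1% and CD68 in 29.9%, against 36.0%, 46.8% and 20.6% of all ZEB1-zero cells. None of the 3 tested passed: CD68 (0.63 ± 0.23, adjusted p = 0.0536), PECAM1 (0.12 ± 0.16, adjusted p = 0.668) and CD14 (-0.05 ± 0.17, adjusted p = 0.879). This list summed to 0.461 to 0.905 against 0.454 to 0.624.

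Some genes of the cell cycle were lower, while most did not pass. Of 38 S phase genes tested, 8 were lower and none higher (median -0.18), and of 53 G2/M genes 8 were lower and none higher (median -0.15), where 9.51% of all genes tested were lower. PCNA, the DNA polymerase clamp, was at 1.65, 1.35, 1.65 and 1.95 in cells with a ZEB1 UMI and at 2.39, 1.63, 2.20 and 2.43 in ZEB1-zero cells (-0.39 ± 0.06, edgeR adjusted p = 1.47e-05). RRM2 (-0.28 ± 0.06), a subunit of ribonucleotide reductase, DSCC1 (-0.68 ± 0.16), GMNN (-0.30 ± 0.09), UBE2C (-0.40 ± 0.10), TACC3 (-0.35 ± 0.09), TMPO (-0.29 ± 0.08) and CDCA3 (-0.57 ± 0.16) were the other examples. By phase score, 58.2% of the 194 cells were in G1 (51.0% to 65.3%) and 52.0% of matched ZEB1-zero cells, while 18.6% (13.3% to 24.8%) and 24.2% were in S phase. G2/M phase took 23.2% and 23.8%, but the experiments differed in direction. In the low-resolution plates the shares were 17.8% and 10.0% against 21.0% and 21.8%. In the high-resolution plates they were 27.0% and 30.4% against 23.9% and 27.0%. The exact 95% interval held the ZEB1-zero share in each plate. Phase is a score on single cells and free RNA can enter it, which was not tested.

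Stress genes differed in both directions. Of 16 immediate early and stress genes, 3 were higher and 4 lower, with FOS (-0.83 ± 0.09) and JUND (-0.45 ± 0.07) lower and JUNB (0.55 ± 0.08) and HSPA1A (0.44 ± 0.08) higher, the last with a near-identical copy. Of 15 genes encoded by the mitochondrial genome, 3 were lower and none higher. Over all genes tested, 10.6% were higher and 9.51% lower. MT-CO2 (-0.17 ± 0.04), MT-ATP6 (-0.12 ± 0.04) and MT-RNR1 (-0.13 ± 0.04) passed, and MT-ND4 did not (-0.07 ± 0.04, adjusted p = 0.207). When cells were also matched on the EMT score tercile, as below, 3 of the 15 were higher and none lower. The median was then 0.06 in place of -0.04, and 0.367% of all genes tested were higher. The mitochondrial share of counts was 27.3%, 30.2%, 29.5% and 26.6% in cells with a ZEB1 UMI and 29.6%, 30.5%, 30.0% and 28.8% in matched ZEB1-zero cells.

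To ask what differed beyond the EMT score, cells with a ZEB1 UMI were also compared with ZEB1-zero cells of the same depth quintile and the same tercile of the score. Of 8731 genes, 32 (0.367%) were then higher and 92 (1.05%) lower, and 77 of these 124 had passed in the same direction before. The mean score still differed by 0.0564 between the groups, with the same sign in 4 of 4 plates. Of the 20 genes with the largest rises and falls, 8 still passed. They were FN1 (0.50 ± 0.06, edgeR adjusted p = 6.98e-05) and PAPPA (0.68 ± 0.14, adjusted p = 0.00281), both higher, and KRT6B (-1.32), KLK7 (-1.15), TCN1 (-1.10), CALB1 (-1.10), ALPP (-1.04) and KLK10 (-0.88), all lower. The score is built from the E and M genes, so the matching itself brings these lists, and lists that share genes with them, toward 0. The medians were -0.08 for the E genes, 0.10 for the M genes, -0.15 for the ZEB1 targets and 0.04 for the EMT factors, none of which passed. CDH1, again named for its role, was lower (-0.73 ± 0.17, adjusted p = 0.0113), and of the target list it and MAL2 (-0.35 ± 0.06) were the 2 genes to pass.

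The cell cycle lists behaved otherwise. With the score matched, 7 of 38 S phase genes and 13 of 53 G2/M genes were lower and none higher, with medians of -0.29 and -0.32. In that comparison 1.05% of all genes tested were lower and 0.367% higher. RRM2 was at -0.47 ± 0.06 (edgeR adjusted p = 2.59e-07), UBE2C at -0.57 ± 0.10 (adjusted p = 0.000436) and PCNA at -0.37 ± 0.07 (adjusted p = 0.000299). Both phase scores were lower in cells with a ZEB1 UMI in 4 of 4 plates, by -0.0532 to -0.0415 for S and by -0.0886 to -0.0378 for G2/M. Phase is called from the S and G2/M genes, so matching on it lowers their differences by construction. Matching on phase in place of the EMT score brought the S phase list to 2 higher and 1 lower and the G2/M list to 0 higher and 3 lower, and left 1743 genes past the threshold in all.

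**Figure D5:**
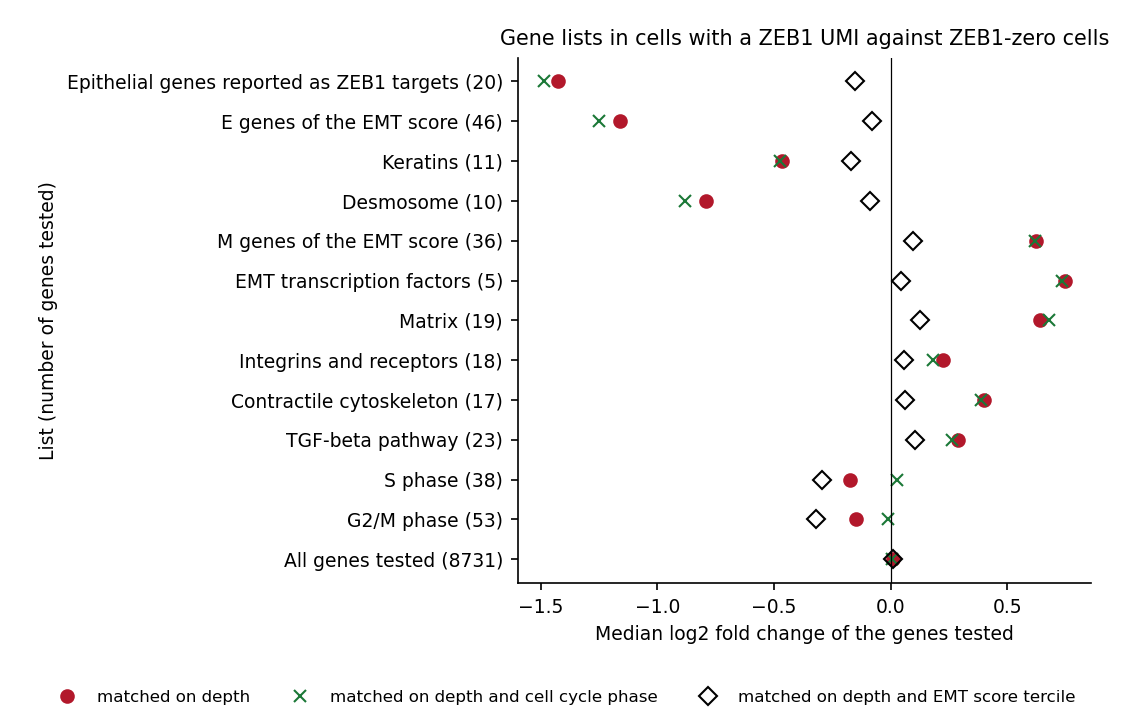
Median log2 fold change of the genes tested in each list, in cells with a ZEB1 UMI against ZEB1-zero cells matched on depth (red), on depth and cell cycle phase (green) and on depth and EMT score tercile (open diamonds). With the score matched, the E and M medians move to -0.08 and 0.10, and the S and G2/M medians move away from 0 to -0.29 and -0.32.

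Cells with at least 2 ZEB1 UMIs, 66 in all, showed larger differences than the whole group for 19 of the 20 named genes. KLK8 went from -2.49 to -4.32, KLK10 from -2.60 to -4.15, TCN1 from -2.84 to -3.96 and FN1 from 1.54 to 1.95, and MYH14 was the exception (-2.32 and -2.30). The median of the ZEB1 target list was -2.15 in these cells and that of the E genes -1.56. The 66 cells are part of the 194, so the difference between these values was not tested. With fewer cells, 1098 genes passed the threshold, of which 1027 had also passed with all 194 cells.

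The difference between cells with and without a ZEB1 UMI was then compared between the 2 experiments, with 2 plates each. The interaction of ZEB1 status with resolution passed for 73 of 8731 genes (0.836%) by edgeR's quasi-likelihood test, 8 of them among the 53 G2/M genes and 4 among the 19 matrix genes. It passed for 15 genes without high-resolution replicate 1, for 22 without high-resolution replicate 2 and for 36 without low-resolution replicate 2. FN1 was one of these, with a mean log2 ratio of 1.87 at low resolution and 1.28 at high resolution. Its level in ZEB1-zero cells was higher in both high-resolution plates. The file names place low-resolution replicate 1 on a different flow cell from the other 3 plates. Without that plate 1379 genes differed with ZEB1 status in place of 1757.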

How the data were processed

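The authors deposited, per plate, an expected count for each gene and well, which is the UMI count after correction for repeated draws of the same UMI sequence, unscaled and with spike-in rows. The submitters' processing notes name STAR 2.7.3a, Seurat 4 and hg38. The median cell depth of a plate was 30118 to 40893 transcripts. For thinning, the correction for 4096 UMI sequences was undone. Doublets were not called beyond the limit of 9000 features.

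Cells with a ZEB1 UMI and ZEB1-zero cells, weighted to the same depth quintiles, were summed per plate and rounded. edgeR 4.0.16 tested the sums (quasi-likelihood, TMM, plate as block, Benjamini-Hochberg adjustment), without ZEB1 and spike-in rows. The plate pairs both sums by design, so no check of replicate numbers was needed. With the plate as a block, p-values measure how the difference within a plate varied over 4 plates, which may be technical. The spread of a gene was estimated with information shared across all genes tested. DESeq2 1.42.0 was an alternative. In simulated counts for 8731 genes at a dispersion of 0.05, the test of ZEB1 status recovered 89% of 2-fold and 25% of 1.5-fold changes, with 6 false calls.

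The genes named are the 10 largest rises and falls past the threshold with 1 sign in all plates, and up to 4 per list by smallest p. The members and all 19 lists were chosen with earlier results of these data known. The tests between resolutions under other settings were added after seeing the data. Promoters come from RefSeq. The CDH1 and EPCAM promoters were not used here.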

Additional observations from a re-analysis of the deposited data

Results flagged for a closer look

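The difference between cells with and without a ZEB1 UMI depended on the phototagging resolution in 73 genes by edgeR's quasi-likelihood test of the interaction, with 660 genes at an unadjusted p under 0.05. Of the genes named, FN1 (interaction -0.5913, log2 difference in the high-resolution minus that in the low-resolution plates), SERPINE2 (-0.5255) and KRT17 (-0.4498) were among them. FN1 and SERPINE2 were higher with ZEB1 in all 4 plates, by less in the high-resolution plates, where their levels in ZEB1-zero cells were above those of both low-resolution plates. KRT17 had a mean log2 ratio of 0.01 in the low-resolution plates and of -0.44 in the high-resolution plates. The count of 73 fell to 15 without high-resolution replicate 1, to 22 without high-resolution replicate 2 and to 36 without low-resolution replicate 2, and was 61 without low-resolution replicate 1, the plate on another flow cell. With the EMT score matched it was 8.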

How the results depend on the processing

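The number of genes that differed with ZEB1 status, 1757, lay between 1696 and 1961 under depth deciles, no depth matching, RLE size factors, a gene filter at 5% of cells, mitochondrial counts left out, no mitochondrial limit and matching on cell cycle phase, and between 1231 and 1474 without each plate in turn. It was 1098 for cells with at least 2 ZEB1 UMIs, 556 of 5100 genes at 10000 UMIs, 550 with DESeq2 (535 of them shared), 259 with no replicate block and 124 with the EMT score matched. The cause was not tested, except that fewer cells or genes entered at 2 UMIs and at equal depth, and that no replicate block leaves differences between plates in the spread. In the gene test at 10000 UMIs the groups were still set by the ZEB1 count at full depth, with 45, 30, 63 and 56 cells. That setting therefore equalized the depth of the other genes and not the selection of cells. The share of calls that were higher was 52.8% and stayed within 10 points of it under RLE size factors. None of the 20 named genes changed direction where tested (10 of them at equal depth). SRGN, POSTN, VCAN, KLK8 and KLK5 lost their calls with no replicate block, and 12 of the 20 with the EMT score matched. The count of genes whose difference depended on resolution, 73, was 82 with RLE size factors, 56 with depth deciles or phase matching, 48 without depth matching, 10 at equal depth, 8 with the EMT score matched and 15 to 61 without each plate in turn. The EMT score difference of 0.596 lay between 0.460 (equal depth) and 0.746 (at least 2 UMIs), and between 0.580 and 0.607 without each plate in turn, where the smallest exact p is 0.25. The share of cells with a ZEB1 UMI, 16.8% on average, was 6.20% at 10000 UMIs and 15.3% without the mitochondrial limit. Of the cells with a ZEB1 UMI, 66.0% held 1, so fewer are found at lower depth.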
